A study of Mus musculus with 4 samples.

Results

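Regulatory T cells (Tregs) were defined in single cell transcriptomes of mouse adipose tissue (AT) by their own transcripts. Barcodes needed 200 genes or more, with mitochondrial transcripts making up 25% or less of their UMIs (unique molecular identifiers, each counting 1 captured transcript). A member was chosen by at least 1 UMI over the CD3 chain genes Cd3e, Cd3d and Cd3g, at least 1 Foxp3 UMI, and no UMI of the CD8 genes Cd8a and Cd8b1 or of the B cell gene Cd79a. Of 4136 kept barcodes, 1900 were T cells and 70 of these were Tregs. The values of those 7 genes in Tregs therefore chose the cells and are given only as a description.

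The 4 libraries came from subcutaneous (SC) and visceral intraperitoneal (IP) AT of WT and KO male mice, with 1 library per group. Both genotypes carried Tie2e-cre and mTmG, and differed in Tert, which was TERT+/+ in WT and TERTfl/fl in KO. Mice were 7 months old and had been fed high-fat diet (HFD) for 5 months. Tie2e-cre was used to delete floxed Tert in endothelial cells (EC), and mTmG turns from tdTomato to GFP where Cre has acted. Nothing in the labels says how many mice made a library, and they call the input both cells and nuclei. The study asked whether Tert loss directed to EC also changes the rest of AT. Since every group was 1 library, no difference between genotypes or depots was tested, and all intervals below cover counting error only.

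Tregs are T cells that restrain other immune cells and are specified by the transcription factor Foxp3. They carry the high-affinity IL-2 receptor chain Il2ra and the inhibitory receptor Ctla4, which competes for costimulatory ligands. In AT, a resident Treg population carries the IL-33 receptor Il1rl1 (ST2) and the lectin receptor Klrg1, can make the epidermal growth factor receptor ligand Areg, and is known to be numerous in visceral fat of lean mice and reduced in obesity.

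To show the genes on which the account of Tregs turns, the 250 bases before a transcription start of the lineage gene Foxp3, the markers Il2ra and Ctla4 and the IL-33 receptor gene Il1rl1 are given 5′ to 3′ from RefSeq on GRCm38.p6, all on the plus strand. They lie at chrX:7579426-7579675, chr2:11642542-11642791, chr1:60908775-60909024 and chr1:40439379-40439628. Capitals mark a forkhead motif, the kind of site bound by Foxp3 and its relatives.
Foxp3: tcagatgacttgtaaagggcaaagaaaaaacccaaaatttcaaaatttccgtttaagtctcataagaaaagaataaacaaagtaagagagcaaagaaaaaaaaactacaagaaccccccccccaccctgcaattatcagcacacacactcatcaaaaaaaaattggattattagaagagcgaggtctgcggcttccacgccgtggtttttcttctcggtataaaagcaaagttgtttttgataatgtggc
Il2ra: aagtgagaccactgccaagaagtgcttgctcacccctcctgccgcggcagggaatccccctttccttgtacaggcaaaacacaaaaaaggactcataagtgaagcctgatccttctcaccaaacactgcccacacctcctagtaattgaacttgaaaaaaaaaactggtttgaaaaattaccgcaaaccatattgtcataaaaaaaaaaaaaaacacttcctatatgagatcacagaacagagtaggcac
Ctla4: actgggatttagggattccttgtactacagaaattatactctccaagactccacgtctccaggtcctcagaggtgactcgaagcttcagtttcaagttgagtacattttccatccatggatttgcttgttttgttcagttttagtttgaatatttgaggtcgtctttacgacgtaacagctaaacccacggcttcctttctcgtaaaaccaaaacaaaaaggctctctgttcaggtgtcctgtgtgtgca
Il1rl1: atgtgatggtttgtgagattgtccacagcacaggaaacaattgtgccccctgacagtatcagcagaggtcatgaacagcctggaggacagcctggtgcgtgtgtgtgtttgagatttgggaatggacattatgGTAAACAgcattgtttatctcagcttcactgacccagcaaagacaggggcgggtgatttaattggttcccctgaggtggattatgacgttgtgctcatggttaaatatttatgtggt
Motifs were searched on both strands, the forkhead motif GTAAACA, the RUNX motif TGTGGTT and the STAT motif TTCCNGGAA. The Il1rl1 stretch held 1 forkhead match and the Foxp3, Il2ra and Ctla4 stretches held none of the 3 motifs. RefSeq gives 1 further stretch each for Il1rl1 (chr1:40429320-40429569, directly before the gene body) and Foxp3 (chrX:7580233-7580482), and neither held a match. Over 32851 promoter stretches of that length, 3.17% held the forkhead motif, 4.40% the RUNX motif and 0.913% the STAT motif. The gene bodies lie on GRCm38 (GENCODE) at X:7573644-7595245 for Foxp3, 2:11642807-11693193 for Il2ra, 1:60887000-60915832 for Ctla4 and 1:40429570-40465415 for Il1rl1, all on the plus strand.

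One irregularity in the libraries preceded the results. The KO SC and WT IP libraries shared 93 barcodes, whose median was 601 UMIs in KO SC and 35392 in WT IP. Of these, 84 had a UMI of the stromal genes Dcn or Col1a1 in WT IP. None was a Treg, and 1 in KO SC and 2 in WT IP were T cells. Without them, the Treg shares and gene calls stayed close to the values below and are given beside them. Scrublet, a doublet caller, marked 23 kept barcodes (0.556%) and no Treg.

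Tregs were found mostly in SC AT. WT SC held 22 Tregs among 466 T cells and KO SC 45 among 1171. Of the IP T cells, 1 of 132 in WT and 2 of 131 in KO were Tregs. The Treg share of T cells was 4.72% in WT SC (exact binomial 95% interval 2.98 to 7.06%) and 3.84% in KO SC (2.82 to 5.11%). In IP it was 0.758% in WT (0.0192 to 4.15%) and 1.53% in KO (0.185 to 5.41%). The intervals of WT and KO overlapped in both depots.

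The log2 ratio of the Treg share, KO against WT, was -0.30 in SC (95% interval -1.06 to 0.51) and 1.01 in IP (-3.25 to 6.89). Both intervals hold a ratio of 1, and they compare these libraries, not the genotypes. Against SC, the IP share was 0.160 times as high in WT (log2 -2.64, -8.01 to -0.01) and 0.397 times as high in KO (log2 -1.33, -4.42 to 0.60). The WT interval just left out a ratio of 1, and its upper bound became 0.01 without the shared barcodes and 0.02 without the Scrublet calls. With shared barcodes removed, the 4 log2 ratios were -0.30, 0.99, -2.62 and -1.33. The choice of denominator and depth moved some of them. As a share of all kept barcodes, KO against WT in SC was 0.0125 (-0.75 to 0.82) and IP against SC in KO -2.57 (-5.66 to -0.64). After thinning each cell to 2000 UMIs, the ratio of T cell shares, IP against SC in KO, turned to 0.55 (-1.85 to 2.31) on 3 KO IP Tregs. The rule on all UMIs gave 2 there. The 1 other KO IP barcode with a Foxp3 UMI had a CD8 UMI, which thinning removed.

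**Figure D1:**
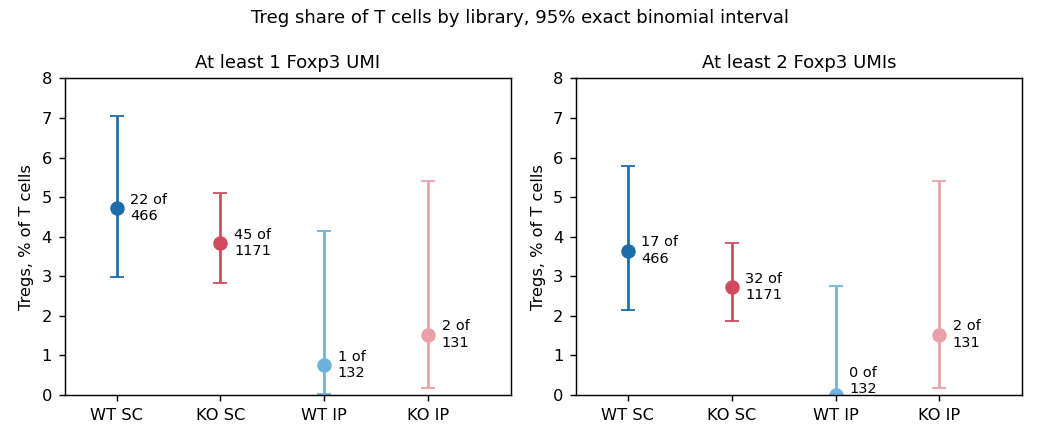
The share of T cells called Treg (percent, y axis) in each library, with points for the share and bars for the exact binomial 95% interval, at 1 or more Foxp3 UMIs (left) and at 2 or more (right). WT SC and KO SC overlap at 4.72% and 3.84%, and both IP points lie below them on 1 and 2 cells.

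Foxp3 itself was sparse. WT SC Tregs held 86 Foxp3 UMIs (median 2.5 per cell, range 1 to 9) and KO SC Tregs 146 (median 3, range 1 to 14). The IP Tregs held 1 in WT, and 7 and 4 in the 2 KO cells. A single Foxp3 UMI carried 5 of 22 Tregs in WT SC and 13 of 45 in KO SC. At 2 or more Foxp3 UMIs the counts were 17 of 466, 32 of 1171, 0 of 132 and 2 of 131 T cells. In B cells, which should lack Foxp3, 1 of 305 in WT SC had a UMI (0.328%) and 0 of 466 in KO SC, which at 3 counts allows a share of cells with a UMI of up to 0.644% (exact binomial upper bound 0.789%). Median depth was 5967 and 4919 UMIs in those B cells, and 6733 and 8050 in the Tregs.

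Around the Foxp3 threshold, the other Treg markers were distributed as follows, with no test. Of the 18 SC Tregs with 1 Foxp3 UMI, Ctla4 was detected in 88.9%, the Helios gene Ikzf2 in 83.3%, the GITR gene Tnfrsf18 in 72.2% and Il2ra in 44.4%. Of the 49 with more, the shares were 98.0%, 95.9%, 85.7% and 71.4%. Just outside, the 867 Foxp3-negative CD8-negative T cells of the SC libraries showed 38.1%, 23.0%, 32.1% and 18.9%. Median depth over these groups was 6542, 8351 and 7039 UMIs.

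The other markers of the label were present. Of 67 SC Tregs, 39 had UMIs of Il2ra, Ctla4 and Ikzf2 together, 25 had 2 of the 3, 2 had 1 and 1 had none. All 3 were found in 59.1% of WT SC and 57.8% of KO SC Tregs, against 5.67% and 2.58% of Foxp3-negative CD8-negative T cells. Those Foxp3-negative cells with all 3 markers numbered 14 in WT SC and 16 in KO SC, and the rule cannot tell a missed Foxp3 transcript from an absent one. After thinning to 2000 UMIs and applying the rule again, Ikzf2 was detected in 100% of WT SC and 78.9% of KO SC Tregs against 19.8% and 13.3% of Foxp3-negative CD8-negative T cells, and Ctla4 in 100% and 78.9% against 25.3% and 26.8%. The thinned comparison group also holds cells that lost their CD8 or Foxp3 UMIs by thinning. Cd4, which codes for the coreceptor of the lineage, had a UMI in 72.7% of WT SC and 66.7% of KO SC Tregs, and in 44.5% and 46.6% of the comparison cells.

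Tregs were then compared with the Foxp3-negative CD8-negative T cells of the same library, on UMIs summed per library and population (edgeR quasi-likelihood test with the library as a term, Benjamini-Hochberg adjusted p under 0.05). Levels are CPM, a gene's UMIs scaled to all UMIs of the summed population, and runs of 4 CPM values are in the order WT SC, KO SC, WT IP, KO IP. A difference in CPM can come from more cells with a transcript or from more of it per cell. The comparison cells are mixed, and gamma delta T cell transcripts were found in 16.2 to 46.5% of them per library, against 1 of 22 and 1 of 45 SC Tregs. Of 6398 genes tested, 124 were higher in Tregs (1.94%) and 200 lower (3.13%). The median log2 difference of all genes was -0.09. The filter on low counts lets a gene enter the test through only the population where it is high, and such genes are among those called. With the SC libraries alone, which hold 67 of the 70 Tregs, 238 of 8531 genes tested were higher and 259 lower. WT IP and KO IP enter with 1 and 2 cells, so their sums are single-cell values. The counts fell to 27 higher and 92 lower without WT SC and to 21 and 74 without KO SC. DESeq2 called 47 and 120, a fit without the library term 60 and 118, and cells thinned to 2000 UMIs gave 37 and 55 of 2065 genes tested.

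Against CD8 T cells, 172 of 4562 genes were higher in Tregs (3.77%) and 182 lower (3.99%), with a median of -0.08. Tregs enter both comparisons, so these are not independent. Of the 124 genes higher against Foxp3-negative cells, 77 were tested against CD8 T cells, and 68 of those were higher there too. The 68 are 54.8% of the first list and 39.5% of the second. The counts against CD8 T cells were 44 and 63 without WT SC, 45 and 47 without KO SC, 97 and 112 without WT IP, and 334 and 320 without KO IP. With the SC libraries alone they were 656 and 473 of 8290 genes tested. With the shared barcodes removed, the first comparison gave 127 higher and 205 lower genes.

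Surface receptors were largely higher in Tregs. Of 16 tested, 9 rose and none fell, with a median log2 difference of 1.86. They were Ctla4, Tnfrsf18, Tnfrsf4, Tnfrsf9, Izumo1r, Lrrc32, Itgae, Klrg1 and Itgb8. Lrrc32 passed the filter on low counts through Tregs alone, where it is high. Against CD8 T cells 9 of 12 rose, with a median of 2.47. These lists were chosen with earlier results of these data known and name known Treg genes, so their direction is not independent evidence.

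Ctla4 was at 1757, 1810, 429 and 1883 CPM in Tregs, against 336, 369, 154 and 204 in the comparison cells (log2 difference 2.17 ± 0.31 SE, adjusted p = 7.84e-10). All 4 Treg sums lay above all 4 comparison sums. Tnfrsf4 (OX40), a costimulatory receptor, was at 602, 688, 0 and 2183 CPM against 139, 71.2, 41.7 and 91.2 (2.81 ± 0.39, adjusted p = 2.23e-10). The single WT IP Treg had no Tnfrsf4 UMI, and the other 3 sums lay above every comparison sum. Tnfrsf9 (4-1BB), another costimulatory receptor, was at 302, 449, 257 and 642 CPM against 43.1, 50.9, 46.9 and 28.4 (2.99 ± 0.40, adjusted p = 1.96e-11). Tnfrsf18 was at 326, 304, 515 and 899 CPM against 111, 64.1, 88.6 and 98.3 (2.04 ± 0.37, adjusted p = 3.75e-06). Neither of these overlapped between the populations.

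The receptors that activate or bind TGF-beta were low in absolute level but far apart between populations. Lrrc32 (GARP), which tethers latent TGF-beta, was at 88.4, 82.5, 257 and 85.6 CPM in Tregs and at 3.71, 2.23, 6.25 and 5.92 in comparison cells (4.60 ± 0.47, adjusted p = 8.71e-20). Itgb8, the integrin chain that frees active TGF-beta from it, was at 133, 152, 0 and 42.8 CPM against 26.4, 4.02, 10.4 and 1.18 (3.46 ± 0.47, adjusted p = 3.64e-11). Both SC sums were above their comparison sums for each gene, and the WT IP Treg had no Itgb8 UMI. Since Lrrc32 entered the test through Tregs alone, its call and adjusted p carry that limit. Outside that pathway, Izumo1r, the folate receptor 4 gene, was at 347, 265, 0 and 257 CPM against 39.4, 36.9, 19.8 and 8.29 (2.94 ± 0.44, adjusted p = 3.05e-09).

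Il2ra, the marker for sorting Tregs, did not pass the test. It was at 265, 174, 0 and 257 CPM in Tregs against 61.6, 97.6, 43.8 and 167 (1.0 ± 0.41, adjusted p = 0.166), and it was detected in 68.2% and 62.2% of SC Tregs against 16.6% and 19.8% of comparison cells. The populations overlapped in the IP libraries. Limited to cells with a Cd4 UMI on both sides, Il2ra was higher in Tregs (1.99, adjusted p = 9.40e-05). Icos, a costimulatory receptor, was at 704, 1048, 0 and 514 CPM against 461, 818, 299 and 658 (-0.18 ± 0.34, adjusted p = 0.918), while against CD8 T cells it was 1.42 (adjusted p = 0.0250).

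**Figure D2:**
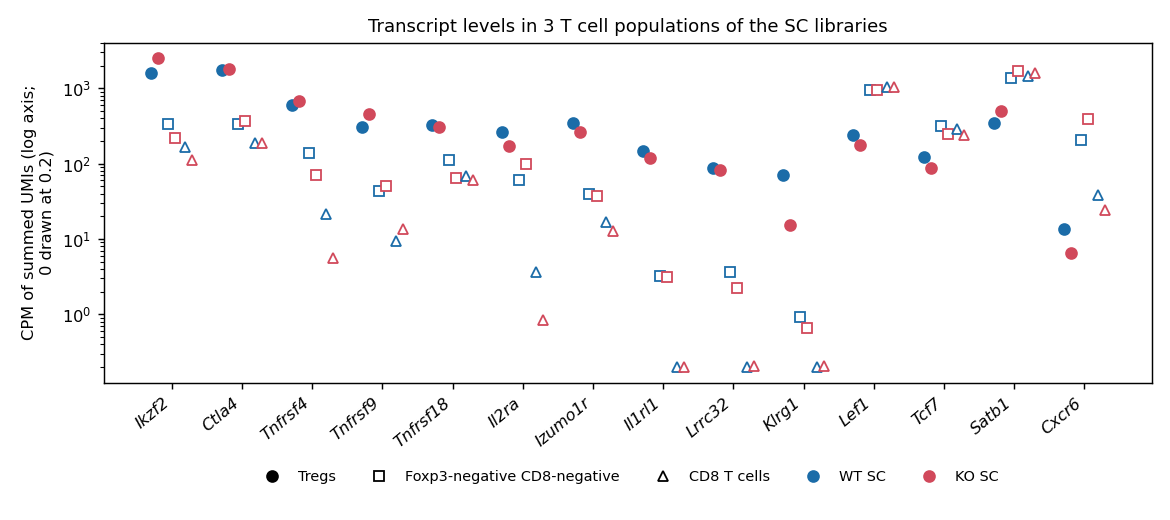
CPM of summed UMIs (log y axis, with 0 drawn at 0.2) for 14 genes in Tregs (filled circles), Foxp3-negative CD8-negative T cells (squares) and CD8 T cells (triangles) of WT SC (blue) and KO SC (red). Receptor and tissue genes lie higher in Tregs, such as Ctla4 at 1757 and 1810 CPM, while Lef1, Tcf7, Satb1 and Cxcr6 lie lower.

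Among the transcription factors that act with Foxp3, 2 of 19 rose and 2 fell, and the median log2 difference was 0.02. Ikzf2, which codes for Helios, was at 1594, 2510, 4546 and 1156 CPM in Tregs against 339, 219, 306 and 208 (2.72 ± 0.29, adjusted p = 4.18e-18). Its relative Ikzf4 (Eos) was at 61.2, 73.8, 85.8 and 128 CPM against 12, 11.4, 1.04 and 2.37 (2.74 ± 0.44, adjusted p = 8.27e-08). Treg and comparison sums did not overlap for either gene. Ikzf4 passed the filter on low counts through Tregs alone, where it is high. Satb1, a chromatin organiser that Foxp3 is known to repress, was at 350, 501, 0 and 342 CPM against 1373, 1712, 421 and 494 (-1.89 ± 0.34, adjusted p = 2.52e-06). Bach2, a repressor of effector genes, was at 608, 462, 0 and 85.6 CPM against 929, 1105, 480 and 699 (-1.60 ± 0.35, adjusted p = 0.00021). In each library Satb1 and Bach2 were lower in Tregs.

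Resting and lymph node homing genes moved the other way. Of 14 tested, none rose and 6 fell (Lef1, Tcf7, Il7r, Igfbp4, Dapl1 and Txk), with a median of -1.18. Lef1, a Wnt-pathway transcription factor of naive T cells, was at 241, 178, 0 and 128 CPM in Tregs against 945, 958, 151 and 184 (-2.17 ± 0.42, adjusted p = 1.91e-05). Its partner Tcf7 was at 122, 86.8, 0 and 0 CPM against 318, 248, 126 and 194 (-1.78 ± 0.44, adjusted p = 0.00192). Ccr7, a lymph node homing receptor, was at 336, 584, 0 and 42.8 CPM in Tregs against 377, 441, 74.0 and 32.0, and did not pass the test (-0.08 ± 0.42, adjusted p = 0.976). The call for Igfbp4 ended with the SC libraries alone (adjusted p = 0.0638).

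Tissue Treg genes gave a mixed result. Of 15 tested, 4 rose (Il1rl1, Klrg1, Areg and Tnfrsf9) and 1 fell (Cxcr6), with a median of 0.55. Il1rl1 was at 146, 119, 600 and 85.6 CPM in Tregs against 3.24, 3.13, 4.17 and 15.4 (4.91 ± 0.46, adjusted p = 3.27e-23). It was detected in 7 of 22 WT SC and 9 of 45 KO SC Tregs and in 0.810% and 0.806% of comparison cells. Klrg1 was at 71.4, 15.2, 858 and 171 CPM against 0.927, 0.670, 16.7 and 4.74 (5.00 ± 0.50, adjusted p = 1.38e-20), in 13.6% and 6.67% of SC Tregs. Il1rl1 sums did not overlap between populations, and those of Klrg1 overlapped only in that the KO SC Tregs lay below the WT IP comparison cells. Il1rl1 passed the filter on low counts through its Treg sums, where it is high.

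Areg was at 238, 223, 172 and 128 CPM in Tregs against 22.7, 177, 14.6 and 66.3 (1.57 ± 0.45, adjusted p = 0.0121), in 45.5% and 46.7% of SC Tregs. That call ended with the SC libraries alone (adjusted p = 0.225). The chemokine receptor Cxcr6 was at 13.6, 6.51, 0 and 85.6 CPM in Tregs against 203, 390, 243 and 405 (-4.66 ± 0.58, adjusted p = 2.73e-13), lower in all 4 libraries. The difference was smaller in cells with a Cd4 UMI (-2.45, adjusted p = 0.00156) and against CD8 T cells (-1.82, adjusted p = 0.0271). Pparg, a nuclear receptor known for its role in visceral AT Tregs, had 0 UMIs in all 70 Tregs. A count of 0 over the 790120 UMIs of Tregs allows up to 3.797 CPM.

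Suppressive effectors rose in 4 of 8 tested, with none lower and a median of 1.31. Nt5e (CD73), which makes adenosine, was at 269, 115, 172 and 0 CPM against 39.4, 41.3, 45.9 and 60.4 (1.62 ± 0.42, adjusted p = 0.00341). Entpd1 (CD39), which acts before it, was at 44.2, 17.4, 0 and 42.8 CPM against 6.49, 5.14, 21.9 and 9.47 (1.93 ± 0.51, adjusted p = 0.00467), and missed the threshold with the SC libraries alone (adjusted p = 0.0583). Gzmb, a cytotoxic protease, was at 10.2, 32.5, 0 and 1541 CPM against 19.9, 11.6, 87.5 and 40.3 (1.83 ± 0.43, adjusted p = 0.000821). All 36 Gzmb UMIs of KO IP were in 1 Treg, and the SC libraries alone gave 0.49 (adjusted p = 0.717).

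Genes of the signalling pathways changed little as lists. In IL-2 receptor and STAT5 signalling, none of 12 rose and 1 fell, the death gene Bcl2l11 (log2 difference -2.01). In TNF receptor and NF-kB signalling, 1 of 12 rose, the adaptor Traf1 (1.85), and none fell. In T cell receptor signalling, 1 of 14 rose, the adhesion receptor Cd2 (1.19). Helper lineage genes fell in 3 of 8 (Il17a, Il23r and Cd40lg), and chemokine and lipid migration receptors in 2 of 9 (Cxcr6 and Gpr183). Il17a had no Treg UMI and passed the filter on low counts through the comparison cells alone, so its direction was fixed in advance.

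Proliferation genes rose in 5 of 14 tested (Mki67, Tyms, Rrm2, Birc5 and Cdk1), with none lower and a median of 1.201. In SC, UMIs of Mki67, Rrm2, Birc5 and Cdk1 were each in 4 of 22 WT and 4 of 45 KO Tregs. Those of Tyms were in 4 and 6. The summed list was at 4979, 3359, 686 and 1156 CPM in Tregs against 1343, 1093, 2853 and 1610, so it was lower in IP Tregs. Mki67, a marker of cycling cells, was at 197 CPM in WT SC and 128 in KO SC Tregs, against 36.1 and 21.7, and the 3 IP Tregs had none (1.61 ± 0.41, adjusted p = 0.00331). A UMI of Mki67 or Top2a was found in 16 of 67 SC Tregs (23.9%, exact binomial 95% interval 14.3 to 35.9%). The shares were 6.11% (4.61 to 7.92%) of Foxp3-negative CD8-negative T cells and 6.57% of CD8 T cells. In WT SC it was 5 of 22 Tregs (22.7%) and in KO SC 11 of 45 (24.4%). The 16 Tregs were deep, with a median of 11552 UMIs. After thinning each cell to 2000 UMIs and applying the rule again, 6 of 29 Tregs (20.7%) had one against 2.06% of 1069 comparison cells and 1.15% of 435 CD8 T cells. These thinned groups differ from the full ones, since cells that lost their CD8 or Foxp3 UMIs became comparison cells. In WT SC and KO SC, comparison cells went from 247 and 620 to 273 and 796. CD8 T cells went from 195 and 505 to 140 and 295. Phase calls were not made, and cycling beyond these transcripts was not read.

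Hypoxia targets, glycolysis genes, senescence regulators and mitochondrially encoded respiratory genes gave few calls, with medians of 0.09, 0.26, -0.37 and -0.43. None of 12 hypoxia targets, 8 senescence regulators or 13 mitochondrial genes passed the test in either direction. Of 12 glycolysis genes only Hk2 passed, at 6.80, 8.68, 0 and 0 CPM in Tregs against 63.0, 57.6, 52.1 and 90.0 (-3.12 ± 0.63, adjusted p = 4.58e-05). Hk2 passed the filter on low counts through the comparison cells alone, where it is high, so its call carries that limit. Of 15 dissociation and immediate early genes, which respond to tissue digestion, 4 fell in Tregs (Jun, Egr1, and Hspa1a and Hspa1b, near-identical copies whose reads may be shared).

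The 10 largest decreases were all in genes without a single Treg UMI. These genes passed the filter on low counts through the comparison cells alone, so their direction was fixed in advance. They stay among the lower genes counted above, and their fold bounds are given only as a description. Of 790120 Treg UMIs, none was Cd163l1, Il17a, Tcrg-C1 or Blk, which mark gamma delta and type 17 T cells, or Il1r1. Against the limit of 3 UMIs over all Tregs, they were at least 82.8-fold lower for Cd163l1, 57.3-fold for Il17a, 36-fold for Tcrg-C1, 33.5-fold for Blk and 33.6-fold for Il1r1. The stromal genes Col1a2, Abi3bp, Fbn1, Ebf1 and Fstl1 also had no Treg UMI (at least 55.2-, 25.6-, 20.7-, 20.2- and 17.3-fold lower). Of the gamma delta, stromal, natural killer and red cell lists, 5 of 7, 6 of 10, 3 of 10 and 4 of 5 genes passed the filter on low counts, several of them through the comparison cells alone, so their calls are not counted here. Neither of 2 myeloid genes nor the 1 endothelial gene tested passed the test. The summed 10 stromal markers were at 13 to 257 CPM in Tregs per library and 752 to 6325 in comparison cells, and their part in the differences was not tested. The 10 myeloid markers were at 0 to 184 CPM in Tregs and 132 to 1078 in comparison cells, with 6 to 10 of the 10 at 0 in Tregs.

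The B cell markers, Cd74 and Ighm, rose in Tregs. Cd74, the class II invariant chain, was at 1023, 202, 858 and 385 CPM against 29.6, 33.7, 714 and 10.7 (2.93 ± 0.43, adjusted p = 1.00e-09). Of 301 Cd74 UMIs in WT SC Tregs, 238 were in 1 cell, which also held 101 H2-Aa UMIs. Without that cell and the one richest in Cxcl2, the log2 difference was 2.29. Ighm was at 269, 163, 172 and 428 CPM against 61.2, 43.3, 26.1 and 17.8 (2.33 ± 0.41, adjusted p = 1.28e-06). The summed B cell markers were at 406 to 1319 CPM in Tregs and 37.9 to 742 in comparison cells, and in Tregs 2 to 8 of the 10 genes per library were at 0. Cd79a was at 0 by the rule, and the part of B cell RNA was not tested.

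The largest increases also held genes outside the lists. Gbp3, an interferon-inducible GTPase, was at 68.0, 93.3, 0 and 214 CPM against 10.7, 4.69, 26.1 and 30.8 (2.95 ± 0.44, adjusted p = 2.56e-09), and Cd83, an activation marker, at 98.6, 165, 172 and 0 against 18.1, 10.1, 20.8 and 9.47 (2.97 ± 0.44, adjusted p = 2.76e-09). Mctp1, Cenph and Kif22 rose by 2.99, 2.80 and 2.79 on the log2 scale. Kif22 passed the filter on low counts through Tregs alone, where it is high. Of the 124 genes higher in Tregs, 92 had a promoter stretch, and 3 of these (3.26%) held the forkhead motif, Gbp3, Il1rl1 and Swap70, against 2.80% of the 5138 tested genes with one. Among the lower genes it was in 9 of 150.

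Within SC Tregs, homing and tissue transcripts split the cells. Of 67, 28 had UMIs of the homing receptor Ccr7 without Il1rl1, Klrg1 or Areg (9 in WT, 19 in KO), 14 had the reverse (5 and 9), 21 had both (7 and 14) and 4 neither (1 and 3). Median depth was 7783 UMIs in the homing-only, 5805 in the tissue-only and 10493 in the double cells. Some cells on the tissue side had Areg without Il1rl1 or Klrg1, and some of these had a single Areg UMI. Areg was also found in comparison cells, and its call ended with the SC libraries alone, as given above. These groups were drawn on their own transcripts, so the levels below are a description.

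Tissue-only Tregs had more of several genes in both libraries. Ikzf2 was at 3534 CPM in WT SC and 5220 in KO SC tissue-only Tregs, against 1140 and 2326 in homing-only ones. Rora, a nuclear receptor, was at 1276 and 1471 CPM against 158 and 352, and Icos at 1309 and 1580 against 362 and 405. Id2, an inhibitor of E proteins, was at 360 and 836 CPM against 18.5 and 33.2. The integrin Itgae was at 294 and 341 CPM against 27.8 and 39.9, and Foxp3 at 655 and 589 against 287 and 266. Lef1 and Bach2 ran the other way, at 32.7 and 31.0 CPM against 195 and 392 for Lef1, and at 131 and 372 against 1223 and 831 for Bach2. Il2ra was close in both, at 491 and 186 CPM against 473 and 199.

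**Figure D3:**
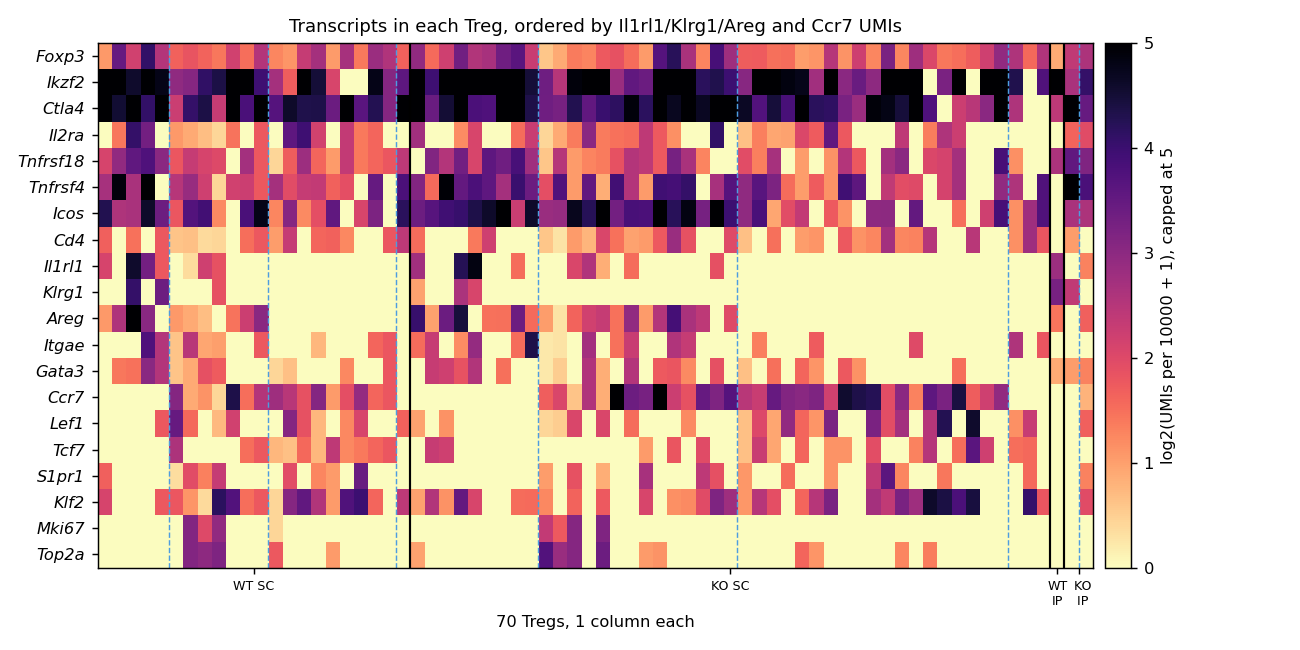
Each column is 1 of the 70 Tregs and each row a gene, coloured by log2 of depth-scaled UMIs plus 1 (capped at 5). Black lines part the libraries and dashed blue lines the tissue-only, double, homing-only and remaining Tregs within each. Ikzf2 and Ctla4 are present in nearly every column, while Klrg1 is in 13.6% of WT SC and 6.67% of KO SC Tregs.

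**Figure D4:**
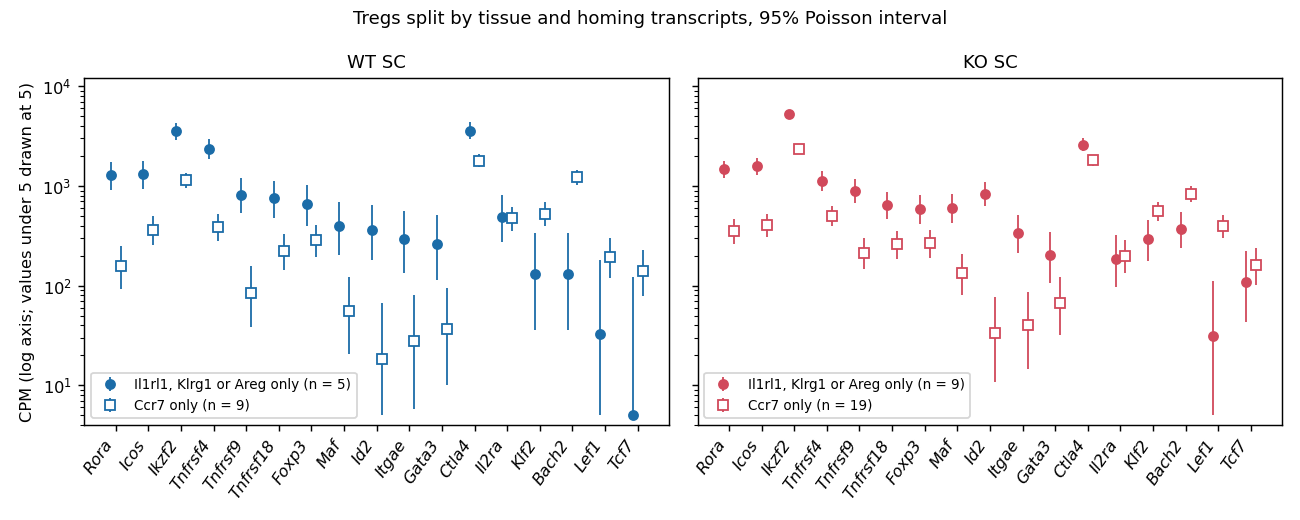
CPM (log y axis, values under 5 drawn at 5) with Poisson 95% intervals for tissue-only (filled circles) and homing-only (open squares) Tregs of WT SC (left, 5 and 9 cells) and KO SC (right, 9 and 19 cells). Rora and Icos are higher in tissue-only Tregs in both panels, Lef1 and Bach2 lower, and Il2ra close to equal.

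The 3 IP Tregs were described one by one. The WT IP cell (11659 UMIs) had 1 Foxp3, 53 Ikzf2, 5 Ctla4, 10 Klrg1, 7 Il1rl1 and 6 Tnfrsf18 UMIs, and none of Il2ra or Tnfrsf4. In KO IP, the first cell (13826 UMIs) had 7 Foxp3, 22 Ikzf2, 14 Ctla4, 18 Tnfrsf4, 36 Gzmb and 33 Traf1 UMIs. The second (9536 UMIs) had 4 Foxp3, 5 Ikzf2, 30 Ctla4, 33 Tnfrsf4 and 14 Traf1 UMIs, with 4 Klrg1. Il1rl1 was at 2 UMIs in the first KO IP cell. With 1 and 2 cells, IP Tregs were not compared by gene.

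KO and WT were compared as values between the SC Tregs, over genes with at least 20 UMIs in both together. Deep cells weigh most in these sums. WT SC Tregs held 294217 UMIs, of which single cells held 37044, 35161, 33562, 30136 and 28875. KO SC Tregs held 460882, of which single cells held 58672 and 47063. Apart from the WT cell of 37044 UMIs, each of these cells had UMIs of Mki67 or Top2a. At least 2-fold higher in KO were 262 of 5077 genes (5.16%) and at least 2-fold lower 343 (6.76%), with a median log2 ratio of -0.01. The balance of the counts depended on the cells. They were 418 higher and 420 lower with each cell weighted equally, and 318 and 279 without 2 WT SC Tregs described below. Of 17 surface receptors none was at least 2-fold higher and Klrg1 alone at least 2-fold lower (median 0.04), and none of 17 Foxp3 partners passed either bound (median -0.01). Of 8 chemokine and lipid migration receptors, 7 had a ratio below 0 and 2 were at least 2-fold lower, Ccr4 and Gpr183 (median -0.70). The median of that list was 0.32 in the comparison cells and -0.52 in CD8 T cells. In Tregs without the cell richest in each gene, Ccr2, Ccr6, Cxcr3 and S1pr4 turned to 0.06, 0.61, 0.78 and 0.58. Ccr4, Gpr183, Cxcr4 and Ccr8 kept their sign, at -0.67, -0.72, -0.88 and 0.51. With all cells the Ccr4 interval held 0 (-2.58 to 0.16). Of 13 dissociation and immediate early genes, 10 were below 0, none was at least 2-fold higher and the heat shock genes Dnajb1, Hspa1b and Hspa1a were at least 2-fold lower (median -0.25). In the comparison cells 12 of 16 were below 0 (median -0.21), in CD8 T cells 8 of 16 and in B cells 6 of 16, and the part of tissue handling in the Treg ratios was not tested. Proliferation genes had 1 higher, Mcm2, and 3 lower of 15 (median -0.05), hypoxia targets 1 higher and 2 lower of 9 (median -0.20), senescence regulators 1 higher and 1 lower of 7 (median -0.51), and mitochondrially encoded genes 1 higher and 0 lower of 13 (median -0.17). The higher one, mt-Nd6, had 27 and 7 UMIs in KO and WT. Of the 13, 6 counting intervals lay below 0 and 1 above. Their sum was at 29253 CPM in KO SC and 35137 in WT SC Tregs, and at 34306 and 37711 in comparison cells.

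Foxp3 itself was at 292 CPM in WT SC and 317 in KO SC Tregs. Ctla4 had a log2 ratio of 0.04 (counting interval -0.12 to 0.20). Ikzf2 was higher in KO SC, at 2510 against 1594 CPM (0.65, 0.50 to 0.81), with UMIs in 42 of 45 and 20 of 22 Tregs. In the comparison cells of the same libraries its ratio was -0.63, and in CD8 T cells -0.60. Icos was at 1048 against 704 CPM (0.57, 0.34 to 0.82), and its ratio was 0.82 in the comparison cells and -0.30 in CD8 T cells. Nt5e was lower in KO SC, at 115 against 269 CPM (-1.22, -1.75 to -0.70). Il2ra was at 174 against 265 CPM (-0.61, -1.08 to -0.14), and without the Treg with most of it the ratio was -0.21. Klrg1 was at 15.2 against 71.4 CPM on 7 and 21 UMIs, each in 3 Tregs (-2.17, -3.71 to -0.94).

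Of the stress genes, Gadd45b was higher in KO SC Tregs, at 349 against 153 CPM (1.18, 0.71 to 1.70), in 36 of 45 and 14 of 22 cells. Mif, a cytokine among the hypoxia targets, was at 627 against 282 CPM (1.15, 0.80 to 1.52), and 105 of its 289 KO UMIs were in 1 Treg, without which the ratio was 0.65. Cdkn1a (p21), the cell cycle inhibitor, was at 28.2 against 102 CPM (-1.82, -2.92 to -0.87). Of its 30 WT UMIs 20 were in 1 Treg, and the ratio without it was -0.47.

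The largest ratios differed in whether other lymphocytes shared them. Gm10260, a predicted gene whose reads may be shared with near-identical copies, had 150 UMIs in 36 of 45 KO SC Tregs and 1 UMI in 22 WT SC Tregs (6.001, 4.08 to 11.89). Its ratio was 7.01 in the comparison cells, 6.90 in CD8 T cells and 6.69 in B cells. Gm11361, also a predicted gene, had 151 against 9 UMIs (3.35, 2.46 to 4.58), with 3.51, 4.17 and 3.82 in those populations. The heat shock gene Hspa1a had 4 UMIs in KO SC and 67 in WT SC Tregs (-4.55, -6.63 to -3.29), with -4.86, -3.57 and -3.91 in the others. The other 3 genes of this kind rested in part on 1 KO SC Treg each. Lyar, a nucleolar gene, had 49 UMIs in 11 KO SC Tregs against 4 (2.81), of which 22 were in 1 Treg. Its ratio was 2.12 without that Treg and 1.05 with cells weighted equally, and it was -0.59 in the comparison cells, -0.45 in CD8 T cells and -0.02 in B cells. AI506816 had 75 against 6 UMIs with 40 in 1 Treg (2.89, and 1.86 without it), with -0.09, 0.35 and 0.99 in those populations. The chemokine Cxcl10 had 70 against 8 with 44 in 1 Treg (2.40, and 1.005 without it), with -2.04, 1.95 and 0.98.

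Of the lower genes, Prkg1, Cadm1 and Cxcl2 had most of their UMIs in 2 WT SC Tregs. One of 37044 UMIs held all 124 Prkg1 UMIs and 47 of 48 Cadm1 UMIs of WT SC Tregs, and a second of 5658 UMIs held 114 of 133 Cxcl2 UMIs and 47 of 70 Areg UMIs. KO SC Tregs had no UMI of Prkg1 or Cxcl2. Without its top cell the Cadm1 ratio was -0.10, and that of Areg went from -0.09 to 1.46. Without both cells, 130 genes were higher and 222 lower in Tregs than in Foxp3-negative CD8-negative T cells, and the Areg difference was 0.90 (adjusted p = 0.312).

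**Figure D5:**
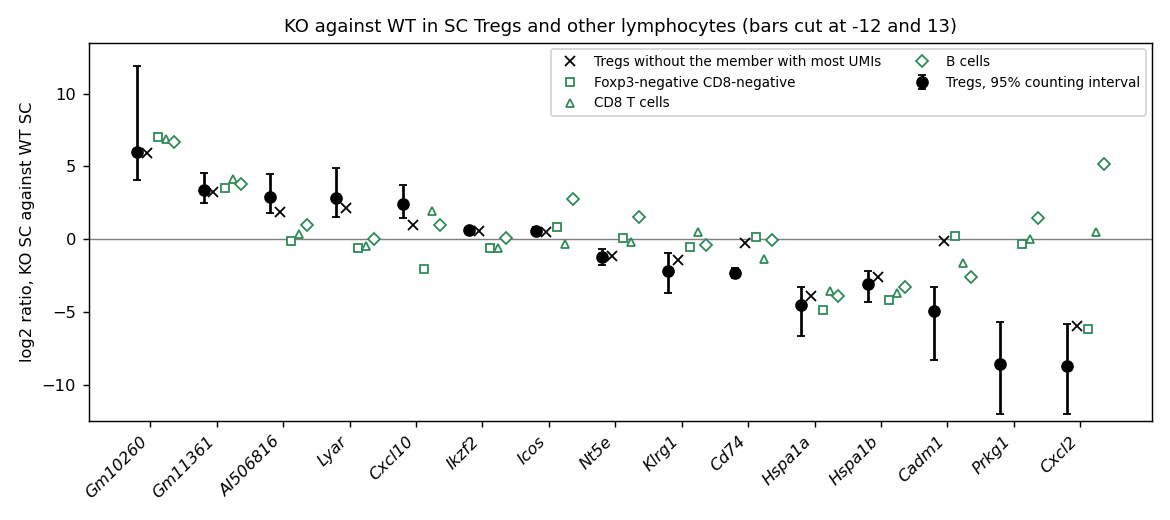
The log2 ratio of KO SC against WT SC (y axis) for 15 genes, with Tregs as filled circles and their 95% counting interval (bars cut at -12 and 13), Tregs without the cell richest in that gene as crosses, and other lymphocytes as green open symbols. Gm10260, Gm11361 and Hspa1a point the same way in the 4 populations, the Cadm1 ratio is -0.10 without 1 Treg, and Prkg1 has no cross, since 0 UMIs were left on both sides.

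The targeted gene could not be checked in Tregs. Tert had 1 UMI in WT SC Tregs and 0 in the others. The reporter GFPcds was detected in 54.5% of WT SC and 31.1% of KO SC Tregs, at 969 and 375 CPM, and Tdtomato in 18.2% and 8.89%, at 13.6 and 8.68 CPM. GFPcds was also in 65.2% and 41.8% of the comparison cells and 42.6% and 24.5% of B cells. Whether Cre had acted in Tregs was not tested. Hbb-bs, a haemoglobin transcript of red cells, was found in 68.2% of WT SC and 15.6% of KO SC Tregs, and in 190 of 305 and 93 of 466 B cells. GFPcds and Hbb-bs were detected less widely in KO SC than in WT SC, in Tregs as in B cells, and their part in the Treg ratios was not tested. The libraries held 10015201 to 15533961 UMIs in all.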

How the data were processed

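Cells from SC and IP AT of WT and KO mice were profiled by 10x Genomics Chromium 3' v3 single cell RNA sequencing, 1 library per group. The files deposited by the authors hold raw UMI counts for each gene in each barcode. File headers name Cell Ranger 7.0.0, and the submitters' processing notes name STAR 2.6 and mm10. Each table held 32290 features, 5 of them reporters. Whether intronic reads were counted is not given in the sources used here.

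Barcodes needed 200 or more genes and 25% or less of mitochondrial UMIs. Doublets were not removed, and removal of Scrublet calls (expected rate 5%) was an alternative. The Treg rule, its members and the 23 gene lists were chosen with earlier results of these data known. Counts were summed per library and population into 8 sums for each comparison and tested with edgeR 4.0.16 (filterByExpr, TMM, quasi-likelihood test, library as a term, Benjamini-Hochberg adjusted p under 0.05), with 3 residual degrees of freedom. Sums of the same library are paired, since they share their cells' source. Shares have exact Clopper-Pearson intervals at 95%, ratios exact conditional binomial intervals, and CPM exact Poisson intervals. KO and WT SC Tregs were set side by side for genes with at least 20 UMIs together, as log2 ratios of CPM after adding 0.5 UMI. Cells with more UMIs pass the Foxp3 rule more easily, so cells were also thinned to 2000 UMIs. The rule was applied again after thinning, so cells could change population by losing CD8 or Foxp3 UMIs.

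Genes named were the rule genes, Tert, the list genes a sentence needs, the 15 largest increases and 10 largest decreases past the threshold against Foxp3-negative CD8-negative T cells, and the 5 largest KO to WT ratios in each direction among genes with at least 50 UMIs. Other genes (H2-Aa, Swap70, Hbb-bs) were named after their values were seen. Some genes that these rules name, and 1 alternative, are not reported here. Alternatives were DESeq2 1.42.0, upper-quartile scaling, other filters, no library term, each library left out, and other cell limits. The shared barcodes, the SC libraries alone and the leaving out of single cells were added after seeing the data. The scripts were tested on simulated data. Analyses ran in R 4.3.3 and Python 3.11.15 with scanpy 1.11.5, anndata 0.12.19, matplotlib 3.10.9, pandas 2.3.3, scipy 1.17.1 and numpy 2.4.6.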

Additional observations from a re-analysis of the deposited data

Results flagged for a closer look

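Foxp3 UMIs also appeared in kept barcodes that the Treg rule left out. In WT SC there were 4 such barcodes, of which 2 had a CD8 UMI, 2 a Cd79a UMI and 1 no CD3 UMI. In KO SC there were 4, of which 1 had a CD8 UMI and 3 a Cd79a UMI. WT IP and KO IP each had 1. No barcode below the quality limits held a Foxp3 UMI. These are signals outside the cells compared, and no background level was set for them. Among B cells without CD3 UMIs, 1 of 305 in WT SC and 0 of 466 in KO SC had a Foxp3 UMI, and the 2 kinds of barcode were not compared by a test. The source of the Foxp3 UMIs in them was not tested.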

How the results depend on the processing

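The Treg share ratios kept their direction under the alternatives that gave a value, except KO against WT in SC as a share of all kept barcodes (0.0125) and IP against SC in KO after thinning (0.55). The thinned KO IP Tregs included a barcode that had lost its CD8 UMI. With at least 2 Foxp3 UMIs, or after thinning, KO against WT in IP and IP against SC in WT were not run, since WT IP then held 0 Tregs. Gene ratios within IP were not run on 1 and 2 Tregs.

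Against Foxp3-negative CD8-negative T cells, the 124 higher genes became 47 with DESeq2, 195 with upper-quartile scaling, 235 with no filter on low counts, 37 after thinning and 238 in the SC libraries alone, and ranged from 21 to 174 with 1 library left out. The 200 lower genes became 120 with DESeq2, 526 with no filter, 367 with at least 5 UMIs in each sum of one population, 55 after thinning (which left fewer genes to test) and 117 in cells with a Cd4 UMI, and ranged from 74 to 221. Genes tested went from 6398 to 19099 with no filter, 8765 with at least 5 UMIs, 2065 after thinning, 4348 with a Cd4 UMI and 8531 in SC. Against CD8 T cells, the 172 higher genes became 98 with DESeq2, 351 with no filter, 68 with at least 2 Foxp3 UMIs, 44 after thinning and 656 in the SC libraries alone, and ranged from 44 to 334. The 182 lower genes became 332 with no filter, 69 with at least 2 Foxp3 UMIs, 66 after thinning and 473 in the SC libraries alone, and ranged from 47 to 320. There, genes tested went from 4562 to 18027 with no filter, 550 after thinning and 8290 in the SC libraries alone. Counts from settings that tested unlike numbers of genes do not compare as shares. Without the replicate block, which is the library term, the counts were 60 higher and 118 lower against Foxp3-negative cells, and 70 higher and 63 lower against CD8 T cells. Of the 47 DESeq2 calls all 47 were among the 124. In KO against WT, the 262 genes at least 2-fold higher and 343 lower became 418 and 420 with each cell weighted equally, 218 and 238 without the cell richest in each gene, and 318 and 279 without 2 WT SC Tregs.

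The direction of single genes often turned when 1 cell was left out. Of 174 list genes with a KO to WT ratio without the cell richest in the gene, 36 changed sign, and for 34 of these the counting interval with all cells held 0. Among them were Lef1 (-0.44 to 0.42), Tcf7 (-0.50 to 0.37), Foxp1 (-0.26 to 0.36), Top2a (0.06 to -0.83), Rrm2 (0.10 to -1.09) and Mcm2 (1.08 to -0.11). Leaving out the richest cell takes out both its UMIs of the gene and its depth. This often lowers the side that held it, but not always. The mt-Nd5 ratio rose from 0.13 to 0.18 without its richest cell, in KO SC. Tyrobp, with all 22 UMIs in 1 KO SC Treg, gave no such ratio. Ccr2 was at -0.70 against Foxp3-negative cells and at 1.51 in cells with a Cd4 UMI. In KO against WT, Bach2 became 0.0893 and Ccr2 0.0754 with each cell weighted equally, and without the cell richest in the gene Ccr2 became 0.062 and Mki67 0.0864. The cause was not tested. The limits are 1 library per group, 3 Tregs in IP, and a comparison population that holds gamma delta T cells and in which a missed Foxp3 transcript cannot be seen.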
